A study of Rattus norvegicus with 5 samples.

Results

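The 10 genes described here mark successive stages of the oligodendrocyte lineage and were followed in single-nucleus RNA-seq libraries of the rat ventral tegmental area (VTA), a midbrain region best known for its dopamine neurons. They were taken by name, 10 of the 32883 genes in the files: *Pdgfra*, *Cspg4* and *Vcan* of precursor cells, *Gpr17*, *Bcas1* and *Enpp6* of cells on the way to myelination, and the transcription factor genes *Sox10*, *Olig1*, *Olig2* and *Myrf*. Each name stood for a single row of the files, under the identifiers ENSRNOG00000002244 (*Pdgfra*), ENSRNOG00000017208 (*Cspg4*), ENSRNOG00000029212 (*Vcan*), ENSRNOG00000025745 (*Gpr17*), ENSRNOG00000012906 (*Bcas1*), ENSRNOG00000009660 (*Enpp6*), ENSRNOG00000011305 (*Sox10*), ENSRNOG00000028648 (*Olig1*), ENSRNOG00000028658 (*Olig2*) and ENSRNOG00000028274 (*Myrf*). *Mog*, which encodes an outer myelin glycoprotein, served as the marker of the last stage. The study comprised 5 libraries, each from the pooled punches of both hemispheres of 1 adult male Sprague-Dawley rat. All rats formed a single group, which the sample labels give as saline and the paper as drug-naïve, so there was no treatment contrast and the comparisons below are between nuclei of the same rats.

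Oligodendrocyte precursors divide and persist in the adult brain, where they sense growth factors through the PDGF receptor that *Pdgfra* encodes. Some of them leave the cycle, pass through a short premyelinating stage marked by the receptor GPR17, and either die or become oligodendrocytes that wrap axons in myelin. SOX10, OLIG1 and OLIG2 act in the whole lineage, while MYRF switches on the genes of myelin, and the passage between these states is known to occur in only a few cells at a time in adult tissue.

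Promoter sequences are shown for *Pdgfra* and *Enpp6*, because the values below turn on the nuclei in which one of these genes was high and the other close to 0. They are the 250 bases before the annotated start in RefSeq (build GRCr8), at chr14:33408517-33408766 for *Pdgfra* and chr16:52026729-52026978 for *Enpp6*, each read 5′ to 3′ on the minus strand on which the gene lies. Capitals mark the only copy, on the strand opposite to the motif as spelled, of the SOX-type motif ACAAAG.
*Pdgfra*: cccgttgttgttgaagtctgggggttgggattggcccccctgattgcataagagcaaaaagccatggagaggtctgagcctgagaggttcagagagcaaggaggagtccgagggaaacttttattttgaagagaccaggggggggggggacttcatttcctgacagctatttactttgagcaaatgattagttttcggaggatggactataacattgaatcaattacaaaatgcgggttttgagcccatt
*Enpp6*: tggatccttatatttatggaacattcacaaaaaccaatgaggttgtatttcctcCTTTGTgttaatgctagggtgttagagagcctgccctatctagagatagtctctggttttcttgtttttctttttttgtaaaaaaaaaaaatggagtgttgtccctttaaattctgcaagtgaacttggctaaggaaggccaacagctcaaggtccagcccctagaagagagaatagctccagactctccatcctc
ACAAAG, read on either strand, was present in 5454 of 33469 promoter windows (16.3%) and CAGCTG, an E-box of the kind bound by OLIG proteins, in 4007 (11.97%). Windows were found for 6 of the 10 genes (*Pdgfra*, *Cspg4*, *Vcan*, *Gpr17*, *Enpp6* and *Olig2*), of which *Enpp6* held ACAAAG and none held CAGCTG.

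Barcodes with at least 600 UMIs, more than 200 and fewer than 5000 genes and under 5% mitochondrial UMIs were kept, which gave 35234 nuclei (2733, 18927, 3948, 5204 and 4422 in libraries 1 to 5). The libraries held 10193355 to 88576210 UMIs in all, and the median nucleus 980 to 3377. The nuclei fell into 24 clusters, of which 17 could be named from markers that included neither the 10 genes nor *Mog*. The 7 unnamed clusters, in which markers of different types mixed, held 13282 of the 35234 (1859 and 10867 of them in libraries 1 and 2, median 719 UMIs), and these count among every passing nucleus below. Oligodendrocyte precursor-like clusters held 1274 nuclei (62, 511, 196, 260 and 245 in libraries 1 to 5, median 3310 UMIs) and oligodendrocyte-like clusters 9550 (426, 3169, 881, 3143 and 1931, median 2730 UMIs), together 10824 lineage nuclei. No cluster was named for committed precursors. Library 3 stood apart: its precursor-like nuclei formed a cluster of 196 with no nucleus of another library, its lineage nuclei were shallow, and the other oligodendrocyte-like clusters were also drawn largely from 1 or a few libraries. Of the passing barcodes, 111 occurred in more than 1 library.

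The stage genes followed the cluster names. *Pdgfra* was found in 916 of 1274 precursor-like nuclei (71.9%) and in 183 of 9550 oligodendrocyte-like nuclei (1.92%), the latter below its share in neuron-like nuclei (3.35%, median 3178.5 UMIs), where it should be absent. *Mog* was found in 94.6% of oligodendrocyte-like nuclei, in 28.8% of precursor-like nuclei and in 24.1% of neuron-like nuclei. Detection of *Mog* at 1 UMI outside oligodendrocytes was thus at a level that neurons also showed. In barcodes under 100 UMIs, which hold free RNA, *Mog* stood at 4.27 ± 1.47 UMIs per 10000 UMIs (SD, n = 5 libraries).

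The surface and matrix genes of precursors were highest in precursor-like nuclei. All levels by cell type are UMIs per 10000 UMIs, summed per library and given as the mean ± SD over 5 libraries, with no test because the clusters were made from these nuclei. *Pdgfra* stood at 8.20 ± 2.82 in precursor-like nuclei, with library values of 7.11, 5.73, 13.0, 7.04 and 8.13, and at 0.0858 ± 0.0592 in oligodendrocyte-like nuclei, below the 0.563 of free RNA. *Cspg4*, which encodes the proteoglycan NG2, stood at 2.27 ± 1.10 and 0.109 ± 0.0307, and its precursor-like level was lowest in library 3 (0.523, against 1.83 to 3.12 in the others). *Vcan*, which encodes the matrix proteoglycan versican, stood at 17.9 ± 4.71 and 0.606 ± 0.197. For these 3 genes the lowest library of precursor-like nuclei lay above the highest library of oligodendrocyte-like nuclei. In endothelial-like nuclei *Pdgfra* stood at 0.563 ± 0.170, the level of free RNA (0.563 ± 0.315), and *Cspg4* at 0.717 ± 0.312, against 0.196 ± 0.0833 in free RNA, higher than it in each library. *Cspg4* was also above free RNA in microglia-like nuclei of libraries 1, 2, 4 and 5 (1.07, 0.451, 0.732 and 0.604).

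*Gpr17*, a receptor of the premyelinating stage, was rare. It gave 64 UMIs in 62 of 35234 passing nuclei (7, 24, 1, 10 and 20 in libraries 1 to 5), and a second UMI in only 2 of them. Precursor-like clusters held 37 of these nuclei, or 2.90% of their nuclei (95% exact binomial interval 2.05 to 3.98%, which like all intervals here covers counting error only). Oligodendrocyte-like clusters held 6 (0.0628%), a share that was no higher than in neuron-like nuclei (7 of 8318, 0.0842%). The part of background in these 6 was not tested, and they are included in the *Gpr17* nuclei of the lineage counted below. None of the 196 precursor-like nuclei of library 3 had a *Gpr17* UMI, against 6, 10, 7 and 14 nuclei in libraries 1, 2, 4 and 5. The count of 0 allows a share with a UMI of up to 1.53% at a median of 815.5 UMIs per nucleus, far below the depth of the others (3205 to 8027), so no difference can be read from it.

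*Bcas1* and *Enpp6*, both of early myelinating cells, were found across the lineage. *Bcas1* stood at 46.6 ± 16.2 in precursor-like nuclei (66.1, 51.2, 23.3, 53.6 and 38.8 in libraries 1 to 5) and at 20.4 ± 8.21 in oligodendrocyte-like nuclei (31.1, 24.7, 9.03, 18.7 and 18.5). It was higher in precursor-like nuclei of every library, although the ranges of the groups overlapped. In free RNA *Bcas1* stood at 8.34 ± 2.25, and 34.9% of neuron-like nuclei had a UMI of it. Its oligodendrocyte-like level in library 3 lay below the free RNA of that library (10.5). *Enpp6*, which encodes a choline phosphodiesterase, stood at 3.02 ± 1.29 and 2.36 ± 0.233, values that overlapped. Its distribution among nuclei differed, however: 15.8% of precursor-like and 31.6% of oligodendrocyte-like nuclei had a UMI, while the highest count in a nucleus was 79 in the former and 30 in the latter.

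Among the transcription factor genes, the levels of precursor-like and oligodendrocyte-like nuclei lay closer together. *Sox10* stood at 2.33 ± 1.08 and 1.79 ± 0.782, with library 3 at 0.418 in both types and no other library below 1.96. *Olig2* stood at 1.10 ± 0.177 and 0.443 ± 0.0693, and the lowest precursor-like library (0.965) lay above the highest oligodendrocyte-like library (0.532). Its oligodendrocyte-like level was close to free RNA (0.387 ± 0.108). In libraries 1 and 4 it lay below the free RNA of the same library (0.350 against 0.377 and 0.411 against 0.575), and the part of free RNA in it was not tested. *Myrf* ran the other way, at 0.725 ± 0.141 and 1.76 ± 0.562, again without overlap, as its lowest oligodendrocyte-like library (0.912) exceeded its highest precursor-like library (0.900). *Olig1* stood at 1.05 ± 0.217 and 0.813 ± 0.169, which overlapped, and both lay below its level in free RNA (1.58 ± 0.468), so little can be read from *Olig1* UMIs in single nuclei. *Myrf* in precursor-like nuclei likewise lay below its mean in free RNA (0.996 ± 0.462), so its UMIs there are read with the same limit.

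Co-detection was counted first at 1 UMI among the 10824 lineage nuclei. *Pdgfra* without *Gpr17* or *Mog* was found in 675 nuclei (34, 244, 107, 151 and 139 in libraries 1 to 5) and *Mog* without *Gpr17* or *Pdgfra* in 8982 (407, 3071, 592, 3064 and 1848). *Pdgfra* and *Mog* without *Gpr17* met in 402 nuclei (21, 172, 26, 109 and 74). Of the latter, 14.2% were among the 5% of nuclei of their library with the highest doublet scores, against 4.89% of the *Pdgfra*-only and 3.64% of the *Mog*-only nuclei, and in precursor-like clusters the share was 22.9% of 231 such nuclei. Nuclei with 2 cells' RNA and nuclei with free *Mog* RNA were not told apart from nuclei in passage, and the part of either was not tested. Another 722 lineage nuclei, of median 847 UMIs, had none of the 3 genes, and 352 of them came from library 3.

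The 43 lineage nuclei with *Gpr17* (6, 12, 8 and 17 in libraries 1, 2, 4 and 5) were spread over all 4 combinations of *Pdgfra* and *Mog*. *Pdgfra* without *Mog* was found in 13 of them, *Mog* without *Pdgfra* in 11, both in 9 and neither in 10. *Pdgfra* was thus present in 22 of 43 (51.2%, 35.5 to 66.7%) and *Mog* in 20 of 43 (46.5%, 31.2 to 62.3%), against 10.2% and 86.9% of all lineage nuclei. The intervals of these shares overlapped widely, and both shares fell once the nuclei were thinned to 1000 UMIs each, to 27.9% for *Pdgfra* and 25.6% for *Mog*, so the proportions depended on depth. All 6 *Gpr17* nuclei of oligodendrocyte-like clusters had *Mog* and none had *Pdgfra*. Of the 37 in precursor-like clusters, 22 had *Pdgfra* (59.5%, against 71.9% of all precursor-like nuclei) and 14 had *Mog* (37.8%, against 28.8%). Their intervals, 42.1 to 75.2% and 22.5 to 55.2%, held the shares of all precursor-like nuclei. The contrast with all lineage nuclei was thus not seen within precursor-like clusters.

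**Figure D1:**
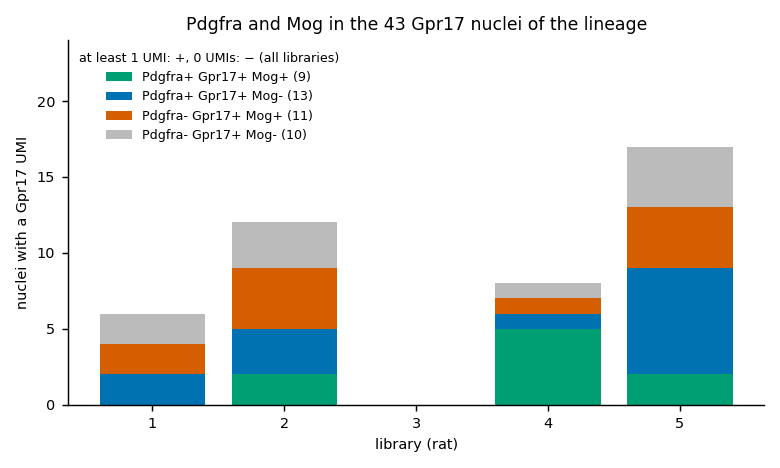
Number of lineage nuclei with a *Gpr17* UMI in each library (x axis, 1 rat each), split by colour into those with *Pdgfra*, *Mog*, both or neither at 1 UMI. Library 3 had none, and in each of the other 4 libraries at least 3 of the 4 classes were present.

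The other stage genes were then counted in the 37 *Gpr17* nuclei of precursor-like clusters and set beside all precursor-like nuclei. The latter include the 196 of library 3, which gave none of the 37. In those 196, *Vcan* was found in 59.7% (80.6 to 95.0% in the other libraries), *Cspg4* in 5.10% (40.5 to 62.9%) and *Sox10* in 4.08% (54.0 to 74.2%). The part of library 3 in the gaps below was not tested, and the direction of small ones, as for *Vcan*, is not read. *Bcas1* was found in 37 of 37 (against 93.1%), *Vcan* in 32 (86.5%, against 83.8%), *Sox10* in 26 (70.3%, against 50.9%), *Cspg4* in 15 (40.5%, against 43.1%) and *Olig2* in 15 (40.5%, against 29.2%). *Enpp6* was found in 16 (43.2%, against 15.8%), *Myrf* in 15 (40.5%, against 18.7% and against 6.80% of neuron-like nuclei) and *Olig1* in 13 (35.1%, against 30.5%). The 43 *Gpr17* nuclei of the lineage were deep, with a median of 4959 UMIs against 2772 for all lineage nuclei and 3310 for precursor-like nuclei, and the part of depth in these counts was not tested. In both nuclei with a second *Gpr17* UMI, *Bcas1* was abundant: 1, of library 1, had 31 *Enpp6*, 294 *Bcas1* and 0 *Pdgfra* UMIs, and the other, of library 4, had 114 *Bcas1*, 0 *Enpp6* and 2 *Pdgfra* UMIs.

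High *Enpp6* counts picked out a small group of precursor-like nuclei that largely lacked *Pdgfra*. Of 1274 precursor-like nuclei, 1073 had no *Enpp6* UMI, 118 had 1 to 4, 39 had 5 to 9 and 44 had 10 or more. Among the 83 with at least 5 (13, 37, 0, 21 and 12 in libraries 1 to 5), *Pdgfra* was at 0 in 71, at 1 UMI in 8 and at 2 or more in 4, although these nuclei were deep (median 7273 UMIs). By contrast, 833 of the 1073 without *Enpp6* had *Pdgfra*, at a median of 3002 UMIs. The minimum of 5 was chosen after these counts were seen, and 2.41% of the 83 were among the 5% of nuclei with the highest doublet scores. Their median score was nonetheless higher (0.0719) than that of precursor-like nuclei without *Enpp6* (0.0435), and the part of doublets was not tested.

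Within precursor-like nuclei, *Pdgfra* and *Cspg4* ran down and *Myrf* ran up with each step in *Enpp6*, while *Bcas1*, *Vcan* and *Mog* took other courses. In the order 0, 1 to 4, 5 to 9 and 10 or more *Enpp6* UMIs, the pooled level of *Pdgfra* was 8.69, 4.30, 0.738 and 0.129 per 10000 UMIs. *Cspg4* ran down likewise, at 2.94, 1.87, 0.443 and 0.0775. *Bcas1* was at 41.4, 37.0, 84.5 and 125, and *Myrf* at 0.521, 1.05, 1.33 and 2.30. *Vcan* (19.3, 13.5, 13.8 and 19.5) was as high in the last class as in the first, while *Mog* was highest at 1 to 4 UMIs (7.95) and lay at 2.14 in the last class, close to the 1.86 of the first. In oligodendrocyte-like nuclei the rises of *Bcas1* and *Myrf* were not seen. The 29 with 10 or more *Enpp6* UMIs had *Bcas1* at 19.3, against 22.2 in those without *Enpp6*, and *Myrf* at 1.62, against 2.12. *Mog* ran down there over the same 4 classes, at 22.5, 22.3, 18.4 and 16.1, as did *Olig1*, at 0.915, 0.598, 0.483 and 0.236. These values pool the nuclei of a class, the class borders are counts and so hold deeper nuclei at the top, and no test was run. Among precursor-like nuclei, the class of 1 to 4 *Enpp6* UMIs also had the highest median doublet score (0.0960). The scores were 0.0435 at 0 UMIs, 0.0754 at 5 to 9 and 0.0716 at 10 or more, and the part of mixed nuclei was not tested.

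**Figure D2:**
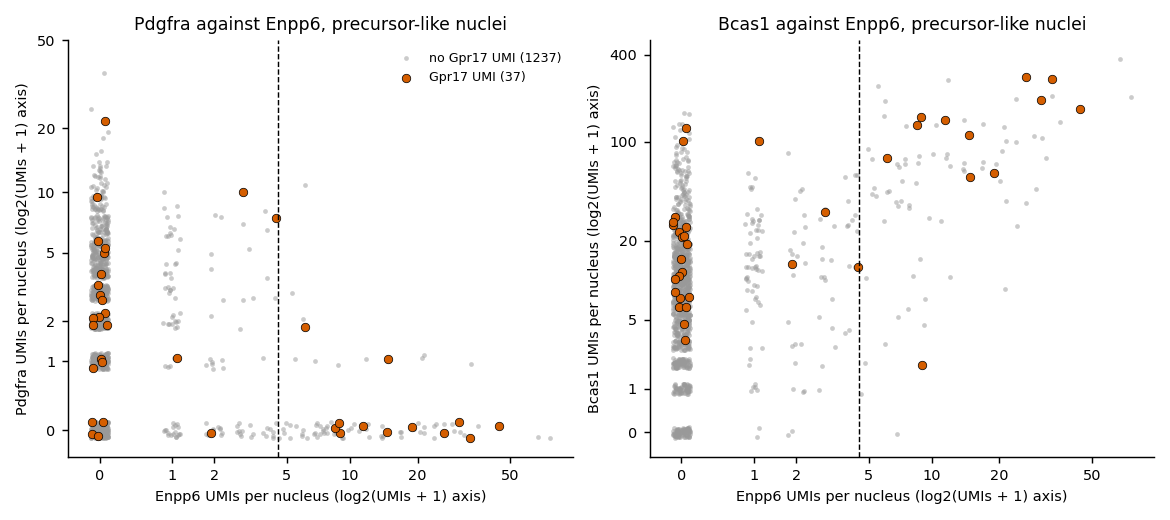
UMIs of *Pdgfra* and of *Bcas1* (y axes) against UMIs of *Enpp6* (x axis) in each of the 1274 precursor-like nuclei, all on log2(UMIs + 1) axes with a small random shift, and with the 37 nuclei that had a *Gpr17* UMI in colour. The dashed line marks 5 *Enpp6* UMIs, right of which 71 of 83 nuclei had no *Pdgfra* UMI while *Bcas1* reached its highest counts.

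*Gpr17* was found more often beside high *Enpp6*. Of the 83 nuclei with at least 5 *Enpp6* UMIs, 12 had *Gpr17* (14.5%, 7.70 to 23.9%), namely 4 of 13, 3 of 37, 2 of 21 and 3 of 12 in libraries 1, 2, 4 and 5. Of the other 1191 precursor-like nuclei, 25 did (2.10%, 1.36 to 3.08%), namely 2 of 49, 7 of 474, 0 of 196, 5 of 239 and 11 of 233 in libraries 1 to 5. The share was higher in each of the 4 libraries that held both groups, and among nuclei of at least 5000 UMIs it was 11 of 59 (18.6%) against 7 of 238 (2.94%). Among the *Gpr17* nuclei, *Pdgfra* was found in 2 of the 12 with high *Enpp6* and in 20 of the 25 others, which follows the pattern of all precursor-like nuclei. *Myrf* was found in 8 of 12 and 7 of 25, and *Mog* in 5 of 12 (41.7%, 15.2 to 72.3%) and 9 of 25 (36.0%, 18.0 to 57.5%), intervals that overlapped widely. The 12 were deeper (median 8773 UMIs) than the 25 (4182), and no test was run.

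Co-detection was then compared across rats after each lineage nucleus was thinned to 1000 UMIs, which removed 1116 shallower nuclei, 805 of them from library 3. For each gene, the share of nuclei with it was taken among nuclei with *Pdgfra* and among those without, and the 5 differences were set against 0 in an exact two-sided sign-flip permutation test, whose smallest p with 5 libraries is 0.063. Over the 19 pairs tested, the smallest value adjusted by Benjamini-Hochberg was 0.0848, so no pair could pass 0.05. *Vcan* was 56.7 ± 7.05 percentage points more frequent with *Pdgfra* (49.1 to 65.5 over the libraries) and *Cspg4* 23.0 ± 13.7 points. *Mog* was less frequent with *Pdgfra* (a difference of -64.2 ± 12.2 points), as were *Enpp6* (-14.4 ± 2.62) and *Myrf* (-11.2 ± 4.32). *Bcas1* (9.0 ± 11.7) and *Olig2* (3.62 ± 2.02) were more frequent with *Pdgfra*, the former mostly in library 3 (29.4 points, and 3.87 ± 2.81 over the others). All 7 differences had a single sign in 5 of 5 libraries and the smallest possible exact permutation p, whereas *Sox10* (1.82 ± 4.02, higher in 3 of 5) and *Olig1* (2.17 ± 3.37, higher in 4 of 5) had not.

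Around *Mog* the signs were mostly the opposite. *Vcan* was less frequent with *Mog* than without it (-31.0 ± 6.90 percentage points), as were *Cspg4* (-8.17 ± 4.75), *Bcas1* (-4.29 ± 4.59), *Olig1* (-3.49 ± 4.78) and *Olig2* (-2.52 ± 1.14). *Enpp6* (4.68 ± 3.38) and *Myrf* (5.43 ± 2.37) were more frequent, and these 7 held in 5 of 5 libraries with the smallest possible exact permutation p. *Sox10* (-1.58 ± 2.65) did not, with library 3 on the other side. Some of these values depended on 1 library or on the setting: *Olig1* was at -1.36 without library 1 and *Bcas1* at -2.30 without library 3. Without thinning *Bcas1* turned to 5.46, and over every passing nucleus *Bcas1*, *Sox10*, *Olig1* and *Olig2* turned to 37.4, 8.76, 2.49 and 1.51. Over every passing nucleus *Vcan* and *Cspg4* with *Mog* came to -3.24 and -1.38, and *Enpp6* and *Mog* with *Pdgfra* to -3.37 and -26.7, each with 1 library of the other sign, and *Myrf* with *Pdgfra* to -4.01. In that setting *Bcas1* with *Pdgfra* came to 26.0, and *Enpp6* and *Myrf* with *Mog* to 9.95 and 10.1, each positive in 5 of 5 libraries. Without thinning most differences were wider, with *Cspg4* at 43.6, *Olig2* at 17.7 and *Myrf* at -21.8 beside *Pdgfra*, and *Cspg4* at -32.0, *Olig2* at -10.2, *Enpp6* at 19.5 and *Myrf* at 25.4 (4 of 5 libraries) beside *Mog*. For *Gpr17*, 8 nuclei remained after thinning, so neither its company with *Pdgfra* nor that with *Mog* was detectable at this depth. Without thinning, *Pdgfra* was in 50.7% of lineage nuclei with *Gpr17* and 10.1% of those without (40.7 ± 19.8 points), and *Mog* in 48.4% and 89.9% (-41.5 ± 17.2), each with 1 sign in 4 of 4 libraries, as means over libraries with no correction for the greater depth of the *Gpr17* nuclei. Of these 43 *Gpr17* nuclei, 37 lay in precursor-like clusters, which held 1274 of the 10824 lineage nuclei. Within those clusters neither contrast was seen.

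For tests across all genes, UMIs were summed per rat over nuclei gated by their own counts. The *Pdgfra* gate held nuclei with at least 2 *Pdgfra* UMIs and under 2 of *Gpr17* and *Mog*, and the *Mog* gate those with at least 2 *Mog* UMIs and under 2 of the others. They held 609 nuclei (41, 208, 64, 151 and 145 in libraries 1 to 5, median 3608 UMIs) and 8488 (401, 2953, 311, 3035 and 1788, median 2917 UMIs). All 609 lay in precursor-like clusters and 8387 of the 8488 in oligodendrocyte-like clusters. A change was called at a Benjamini-Hochberg adjusted p under 0.05 in edgeR's quasi-likelihood test with the rat as a block. *Pdgfra*, *Gpr17* and *Mog* define the gates, so their calls are no test and are not given. Of 8306 genes tested between these gates, 50.6% were called (23.1% higher and 27.4% lower in the *Mog* gate), and 7 of the 8 other stage genes were, so a call alone says little of a gene.

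From the *Pdgfra* to the *Mog* gate, the proteoglycan genes fell far. *Cspg4* stood at 4.94, 2.50, 0.919, 3.99 and 3.89 UMIs per 10000 in the *Pdgfra* gates of libraries 1 to 5 and at 0.0929, 0.145, 0.0943, 0.155 and 0.114 in the *Mog* gates (log2 fold change -4.70, SE 0.19, adjusted p = 1.006e-13). *Vcan* stood at 20.7, 16.7, 12.3, 28.1 and 22.1 and at 0.821, 0.637, 0.503, 0.919 and 0.796 (-4.69, SE 0.14, adjusted p = 1.869e-15). The groups did not overlap for either gene, and both were lower in the *Mog* gate of each rat.

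*Enpp6* and *Myrf* rose over the same interval. *Enpp6* stood at 0.0629, 0.114, 0.460, 0.1004 and 0.0518 in the *Pdgfra* gates and at 2.42, 2.83, 2.17, 2.50 and 2.42 in the *Mog* gates (log2 fold change 4.76, SE 0.22, adjusted p = 9.85e-13). *Myrf* stood at 0.0629, 0.341, 0.613, 0.373 and 0.276 and at 2.14, 1.53, 0.660, 2.33 and 1.89 (2.72, SE 0.23, adjusted p = 5.425e-09). Neither gene's groups overlapped, although library 3 brought those of *Myrf* close, with 0.613 against 0.660.

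*Bcas1*, *Olig2* and *Olig1* fell less. *Bcas1* stood at 43.2, 36.1, 19.0, 37.6 and 29.3 in the *Pdgfra* gates and at 30.8, 25.3, 8.80, 19.2 and 19.2 in the *Mog* gates (-0.64, SE 0.13, adjusted p = 0.0005037), lower in each rat but with overlapping groups. Without the block this call was lost (adjusted p = 0.188). In library 3 the *Mog* gate level (8.80) lay below free RNA (10.5). *Olig2* stood at 1.01, 1.07, 1.23, 1.09 and 1.55 and at 0.368, 0.449, 0.723, 0.415 and 0.496, without overlap (-1.33, SE 0.14, adjusted p = 8.492e-08). The *Mog* gates of libraries 1 and 4 lay below their free RNA (0.377 and 0.575), so the size of this fall is read with that limit. *Olig1* (1.06 ± 0.371 and 0.835 ± 0.212, SD, n = 5) was lower in 4 of 5 rats (-0.47, SE 0.14, adjusted p = 0.007712), a call that was lost without library 5 (adjusted p = 0.0559), without the block, without a filter on low counts and in DESeq2. *Sox10* did not pass (-0.23, SE 0.11, adjusted p = 0.0912), with 2.20 ± 1.08 and 1.81 ± 0.800.

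The planned gate of at least 2 *Gpr17* UMIs held 2 nuclei and could not be fitted, so *Gpr17* nuclei were compared with gates at 1 UMI, a setting listed as an alternative and taken up once that count was known. Then the *Pdgfra* gate held 675 nuclei, the *Mog* gate 8982 and the *Gpr17* gate 43, which gave sums for libraries 1, 2, 4 and 5 and none for library 3. The *Gpr17* gate took nuclei whatever their *Pdgfra* and *Mog* (22 and 20 of the 43 had them). The *Pdgfra* gate excluded every nucleus with *Mog*, and the *Mog* gate every nucleus with *Pdgfra*. Changes of genes that go with *Mog* or *Pdgfra* are therefore not independent of these gates. Against the *Pdgfra* gate, 12.9% of 8581 genes were called (4.89% higher and 8.03% lower, that is 37.9% of the calls higher, against 55.1% in DESeq2), the median of all genes lay at -0.24 on the log2 scale, and 4 of the 8 stage genes were called. *Enpp6* stood at 13.2, 8.85, 12.2 and 6.46 in the *Gpr17* gates of the 4 libraries and at 0.0829, 0.371, 0.0889 and 0.0192 in their *Pdgfra* gates (log2 fold change 5.67, SE 0.34, adjusted p = 7.323e-12). *Bcas1* stood at 134, 99.7, 92.3 and 67.0 and at 40.7, 41.7, 38.8 and 29.1 (1.19, SE 0.18, adjusted p = 3.86e-05). Both were higher in the *Gpr17* gate of 4 of 4 rats, with no overlap.

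*Cspg4* was lower beside *Gpr17* (1.45 ± 0.884, n = 4, against 3.35 ± 1.77, n = 5; -1.65, SE 0.31, adjusted p = 0.0004008), a call lost without the block (adjusted p = 0.0886). *Myrf* was higher (1.36 ± 0.690 against 0.315 ± 0.155; 1.65, SE 0.43, adjusted p = 0.009036), a call lost without library 4 (adjusted p = 0.0969) and without the *Gpr17* nuclei of at least 2 *Mog* UMIs (adjusted p = 0.613). *Vcan* stood at 19.9 ± 4.64 and 19.96 ± 5.73 (-0.26, SE 0.18, adjusted p = 0.407). *Sox10*, *Olig1* and *Olig2* were not called either (-0.07, -0.57 and 0.03).

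Between the *Gpr17* and the *Mog* gate, 23.4% of 8581 genes were called (12.8% higher and 10.5% lower in the *Mog* gate, that is 54.9% of the calls higher against 33.2% in DESeq2, with a median of 0.24), and 5 of the 8 stage genes were. All 5 were lower in the *Mog* gate of 4 of 4 rats: *Vcan* (0.759 ± 0.169; log2 fold change -4.30, SE 0.20, adjusted p = 5.439e-15), *Cspg4* (0.103 ± 0.0445; -3.14, SE 0.43), *Bcas1* (21.1 ± 7.91; -1.76, SE 0.18), *Enpp6* (2.48 ± 0.283; -1.68, SE 0.25) and *Olig2* (0.454 ± 0.0699; -1.21, SE 0.33). The adjusted p of *Enpp6* was 6.236e-06. That of *Olig2*, 0.006473, rose to 0.0759 without library 1 and to 0.326 without the *Gpr17* nuclei of at least 2 *Mog* UMIs. *Myrf* was not called (0.87, SE 0.33, adjusted p = 0.0533) but was without a filter on low counts (adjusted p = 0.00918), with high Scrublet scores removed (0.0499) and without those *Gpr17* nuclei (0.0473). *Enpp6* and *Bcas1* thus stood higher in the sums of the *Gpr17* gate than in those of either other gate. The *Enpp6* UMIs of these sums (75, 62, 58 and 44) came from 4 of 6, 6 of 12, 3 of 8 and 3 of 17 nuclei, so most *Gpr17* nuclei had none. The 2 comparisons share the *Gpr17* sums, in which 37 nuclei came from precursor-like clusters and 6, all with *Mog*, from oligodendrocyte-like clusters.

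With few *Gpr17* nuclei, the 83 precursor-like nuclei of at least 5 *Enpp6* UMIs offered a larger intermediate gate, added after the data were seen. It was set against the *Pdgfra* gate (609 nuclei) and a *Mog* gate without its nuclei (8460), with *Enpp6* now a gate gene whose calls are not given. All 83 came from 1 cluster, the precursor-like cluster of libraries 1, 2, 4 and 5. Rises and falls into or out of a gate are differences between groups of nuclei, and no order in time was measured. Markers of committed precursors fixed for naming clusters summed to 134 UMIs per 10000 in this gate (105 to 170 over 4 libraries), against 15.9 (12.3 to 18.8 over 5) in the *Pdgfra* gate and 13.1 (10.1 to 15.7) in the *Mog* gate. Markers of oligodendrocytes summed to 156, against 37.7 in the *Pdgfra* and 229 in the *Mog* gate, and those of precursors to 82.0, against 153 and 2.28, so both sums lay between those of the other gates, and the part of mixed nuclei was not tested. Markers of neurons summed to 9.23, against 16.9 and 6.12 in those gates and 77.1 in neuron-like nuclei, and those of astrocytes to 3.55, against 11.9 and 6.98 and 110 in astrocyte-like nuclei. Microglial and endothelial markers summed to under 1 in all 3 gates.

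**Figure D3:**
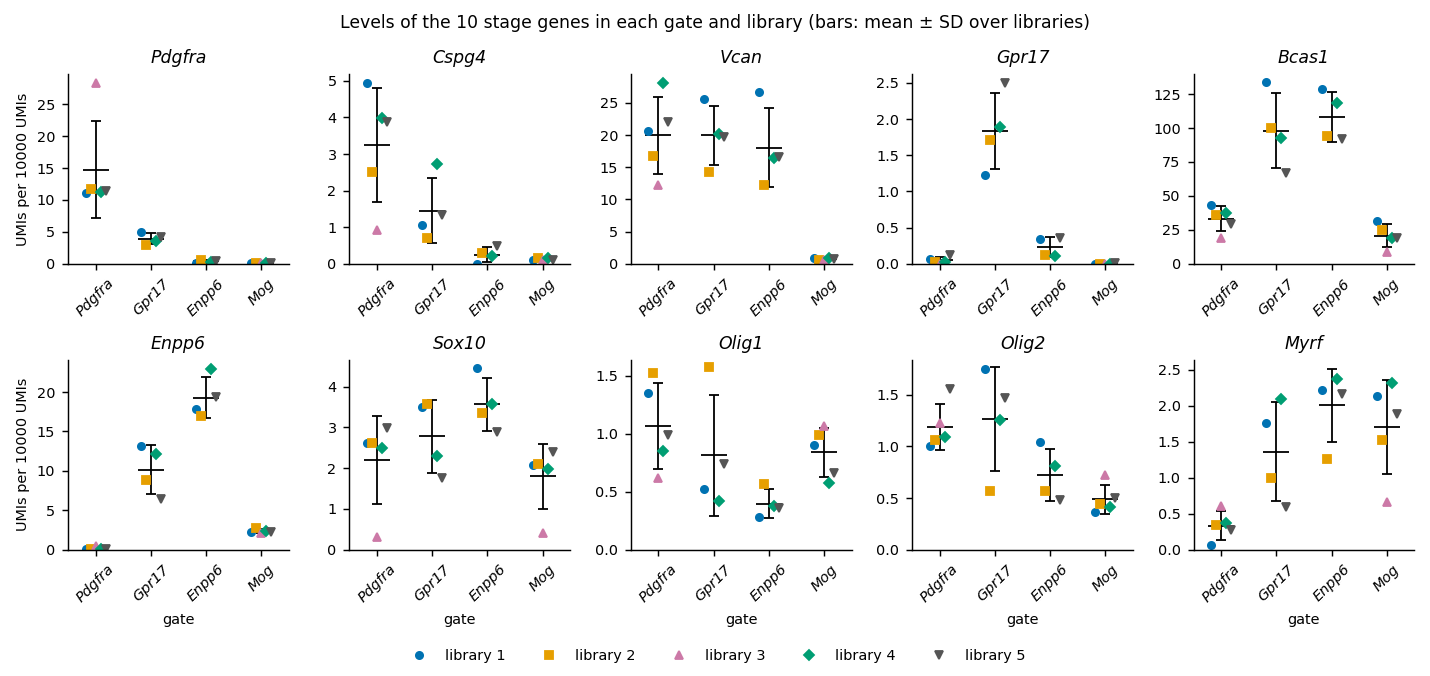
UMIs per 10000 UMIs (y axes, from 0) of the 10 stage genes in the *Pdgfra*, *Gpr17*, *Enpp6* and *Mog* gates (x axes), with a marker per library and bars for the mean and SD over libraries. *Bcas1* is highest in the *Enpp6* and *Gpr17* gates, *Vcan* is high in all but the *Mog* gate, and *Sox10* of library 3 lies under 0.5 in both gates that hold that library.

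*Bcas1* and *Myrf* rose into the *Enpp6* gate. The classes of *Enpp6* counts above, which hold the same nuclei, had already shown these rises and the fall of *Cspg4*. The adjusted p values of these 3 genes against the *Pdgfra* gate are therefore no independent support. The *Pdgfra* gate also excluded nuclei of at least 2 *Mog* UMIs, and the *Enpp6* gate did not. Changes of genes that go with *Mog* are thus not independent of the gates. Of 7818 genes, 34.0% were called against the *Pdgfra* gate (15.3% higher and 18.7% lower), and 5 of the 7 stage genes tested were. *Bcas1* stood at 129, 93.7, 119 and 92.1 UMIs per 10000 in the *Enpp6* gates of libraries 1, 2, 4 and 5, above all 5 *Pdgfra* gates (log2 fold change 1.65, SE 0.18, adjusted p = 8.653e-08). *Myrf* stood at 2.22, 1.26, 2.38 and 2.17, again above all *Pdgfra* gates (2.76, SE 0.30, adjusted p = 1.165e-07). *Sox10* stood at 4.45, 3.36, 3.57 and 2.89, higher in 3 of 4 rats (0.56, SE 0.18, adjusted p = 0.01742), a call lost without the block (adjusted p = 0.270), without library 1 (0.125) and without library 4 (0.0558).

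*Cspg4* and *Olig1* fell into the *Enpp6* gate, and *Vcan* was not called. *Cspg4* stood at 0 (which allows up to 0.208 with 3 UMIs in that sum), 0.284, 0.216 and 0.482, below every *Pdgfra* gate (-3.90, SE 0.38, adjusted p = 2.009e-08). *Olig1* stood at 0.278, 0.567, 0.379 and 0.362, also below every *Pdgfra* gate (-1.36, SE 0.28, adjusted p = 0.0005347), though its mean in all 3 gates lay below that of free RNA (1.58), whose part was not tested. *Vcan*, at 26.8, 12.2, 16.5 and 16.6, overlapped its values in the *Pdgfra* gates (-0.18, SE 0.19, adjusted p = 0.536). *Olig2*, at 1.04, 0.567, 0.811 and 0.482, was not called (-0.50, SE 0.26, adjusted p = 0.156), though it was without library 1 (adjusted p = 0.0475).

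From the *Enpp6* to the *Mog* gate, 31.7% of genes were called (16.4% higher and 15.4% lower), as were 5 of the 7 stage genes, or 3 without the block. *Vcan* fell to 0.703 ± 0.162 (n = 5; log2 fold change -4.51, SE 0.21, adjusted p = 5.256e-14) and *Bcas1* to 20.6 ± 8.34 (-2.21, SE 0.18, adjusted p = 8.858e-10), each lower in 4 of 4 rats. *Sox10* was lower too (1.79 ± 0.791; -0.73, SE 0.17, adjusted p = 0.001805), though not without the block (adjusted p = 0.141), and *Olig1* was higher in 4 of 4 rats (0.839 ± 0.212; 0.98, SE 0.28, adjusted p = 0.008444). *Olig2* was lower in 3 of 4 (-0.75, SE 0.27, adjusted p = 0.03524) and lost its call without library 1 (adjusted p = 0.292), library 4 (0.137) or the block (0.175), without a filter on low counts (0.118), with *Enpp6* at 10 UMIs (0.0946) and without nuclei of at least 2 *Mog* UMIs (0.110). *Myrf* was not called (1.71 ± 0.657; 0.01, SE 0.23, adjusted p = 0.983), nor was *Cspg4* (-0.75, SE 0.56), which was with *Enpp6* at 3 UMIs (-1.59, adjusted p = 0.00627). The values of *Myrf* thus overlapped between the *Enpp6* and *Mog* gates, and those of *Vcan* between the *Enpp6* and *Pdgfra* gates.

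**Figure D4:**
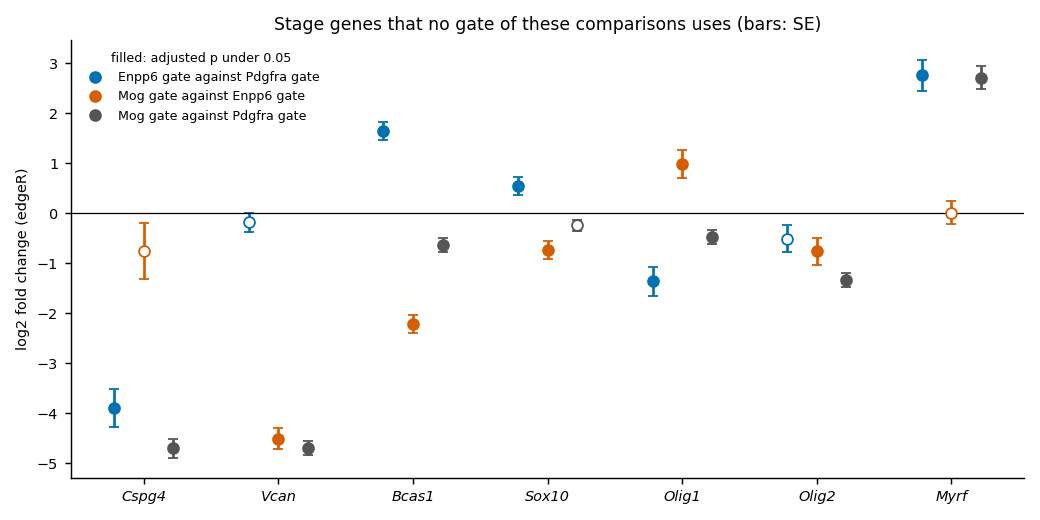
Log2 fold changes from edgeR (y axis, bars 1 SE) of the stage genes (x axis) in the comparisons of the *Pdgfra*, *Enpp6* and *Mog* gates, with filled dots for adjusted p under 0.05 and open dots otherwise. *Bcas1* lies above 0 from the *Pdgfra* to the *Enpp6* gate and below 0 from the *Enpp6* to the *Mog* gate, and *Vcan* changes only in the latter step and in the comparison that spans both.

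Other genes of the lineage were read from fixed lists in the same fits. Some of them had also named the clusters that contain the gates, so their directions between precursor-like and oligodendrocyte-like gates are not independent of the gates. From the *Pdgfra* to the *Mog* gate, all 16 tested precursor surface and matrix genes fell (median log2 fold change -5.36, against 0.01 for all genes, of which 27.4% were called lower) and all 19 tested myelin genes rose (median 2.93, with 23.1% of all genes called higher). Into the *Enpp6* gate, 8 of 9 tested genes of committed precursors and newly formed oligodendrocytes rose and none fell (median 2.98, against -0.06 for all genes, of which 15.3% were called higher). The same list then gave 8 lower and none higher of 9 in the *Mog* gate (median -3.24, against 0.10 for all genes, of which 15.4% were called lower). In the *Gpr17* gate at 1 UMI, 8 of these 9 were also higher than in the *Pdgfra* gate (median 2.43, against -0.24 for all genes, of which 4.89% were called higher). In the *Mog* gate 8 were lower and 1 higher (median -2.50, against 0.24 for all genes, of which 10.5% were called lower). Genes called between the *Gpr17* and *Pdgfra* gates fell from 1109 to 291 without the *Gpr17* nuclei of at least 2 *Mog* UMIs, and these list counts were not repeated there.

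The most abundant of these committed precursor genes are given with their levels. *Tns3*, a focal adhesion gene, stood at 35.2 ± 7.74 UMIs per 10000 in the *Enpp6* gate, 4.71 ± 1.23 in the *Pdgfra* gate and 3.73 ± 0.3996 in the *Mog* gate (n = 4 libraries each; log2 fold changes 2.98 and -3.22 into and out of the *Enpp6* gate). *Fyn*, a kinase gene required for myelination, stood at 36.6 ± 7.53, 5.998 ± 0.881 and 1.49 ± 0.225 (2.76 and -4.53). *Rras2*, of a small GTPase, stood at 22.4 ± 10.3, 0.419 ± 0.122 and 0.942 ± 0.388 (5.80 and -4.50), and *Sirt2*, of a deacetylase of tubulin, at 16.1 ± 3.74, 1.31 ± 0.230 and 2.55 ± 0.264 (3.68 and -2.63). Each was higher in the *Enpp6* gate than in both others in 4 of 4 rats.

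Transcription factor genes did not move as a block, where 34.0% of all genes were called into the *Enpp6* gate and 31.7% out of it: of 10 tested, 5 rose, 2 fell and 3 were not called into the *Enpp6* gate, and 2 rose, 4 fell and 4 were not called out of it. *Tcf7l2*, an effector of Wnt signalling, stood at 16.1 ± 3.75 in the *Enpp6* gate, 1.60 ± 0.0451 in the *Pdgfra* gate and 0.464 ± 0.0611 in the *Mog* gate (log2 fold changes 3.43 and -5.08). *Sox6*, which maintains precursors, was not called into the *Enpp6* gate (28.4 ± 4.76 against 32.1 ± 2.45; -0.01, SE 0.26, adjusted p = 0.99) and fell out of it to 0.217 ± 0.101 (-6.90). *Sox5*, its close relative, was lower in the *Enpp6* gate (1.10 ± 0.669) than in the *Pdgfra* gate (8.70, log2 fold change -2.88). *Zeb2* (1.61) and *St18* (4.83) rose into the gate.

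Most precursor surface and matrix genes were lower in each step. Into the *Enpp6* gate 12 of 16 fell (against 18.7% of all genes), 3 rose and 1 was not called, and out of it 12 fell (against 15.4%), 1 rose and 3 were not called. *Ptprz1*, of a receptor phosphatase, fell from 38.8 ± 1.97 in the *Pdgfra* gate to 3.31 ± 1.06 in the *Enpp6* gate (-3.51) and to 0.605 ± 0.337 in the *Mog* gate (-2.40). *Tnr*, of the matrix protein tenascin-R, rose from 22.4 ± 5.15 to 44.1 ± 14.4 (1.13, adjusted p = 0.001233) and fell to 0.303 ± 0.0990 (-7.01) over the same gates. *Sema5a*, of a semaphorin, rose from 7.99 ± 0.739 to 28.2 ± 9.29 (1.95) and fell to 0.463 ± 0.0730 (-5.82).

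Myelin genes were partly up in the *Enpp6* gate: 13 of 19 rose (against 15.3% of all genes) and 6 were not called, and 14 of 19 rose out of it (against 16.4%) while 5 were not called. The *Pdgfra* gate excluded nuclei of at least 2 *Mog* UMIs, whereas the *Enpp6* gate set no limit on *Mog*, which 52 of its 83 nuclei had. The first rise is therefore not independent of the gates, and these counts were not repeated without such nuclei. *Mbp*, of myelin basic protein, stood at 75.7 ± 6.53 in the *Enpp6* gate against 15.2 ± 12.7 in the *Pdgfra* gate (2.66) and 78.1 ± 3.71 in the *Mog* gate (0.07, adjusted p = 0.882). *Grm3* (2.30 and 3.72) and *Apod* (0.63 and 2.19) rose in both steps, while *Mal* was not called into the *Enpp6* gate (0.14) and rose out of it, from 0.916 ± 0.639 to 6.97 ± 1.25 (2.96).

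Of 13 signalling receptor genes tested, beside the same 34.0% and 31.7% of all genes, 4 rose, 2 fell and 7 were not called into the *Enpp6* gate, and 6 rose, 4 fell and 3 were not called out of it. *Fgfr2* (3.30 and 0.70) and *Lpar1* (3.07 and 0.76), receptor genes for fibroblast growth factors and lysophosphatidic acid, rose in both steps. *Notch1* stood at 1.37 in the *Pdgfra* gate and 1.01 ± 0.279 in the *Enpp6* gate (-0.36, adjusted p = 0.271) and fell to 0.141 ± 0.0354 in the *Mog* gate (-2.79). Of 10 cell cycle genes, 2 could be tested between the *Pdgfra* and *Mog* gates, where 27.4% of all genes were called lower, so 2 calls say little. Both fell: *Mki67* from 0.410 ± 0.253 to 0.0711 ± 0.0450 (-2.44) and *Top2a* from 0.304 ± 0.148 to 0.0041 ± 0.0032 (-5.82). *Mki67* in the *Enpp6* gate (0.366 ± 0.417) was not called against the *Pdgfra* gate (adjusted p = 0.573).

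Among all genes called the same way in every rat, the largest changes into the *Enpp6* gate fell on *Casr*, of the calcium-sensing receptor (2.47 ± 1.03 UMIs per 10000 in the *Enpp6* gate and 0 UMIs in the *Pdgfra* gates of those libraries), *Cemip2* (16.0 ± 12.1 against 0.0459 ± 0.0470), *Tns1* (4.53 ± 1.55 against 0.0150 ± 0.0117), *Gas7* (3.01 ± 0.911 against 0.0122 ± 0.0163) and *Kif19* (2.54 ± 0.965 against 0.0122 ± 0.0163). The largest falls were of genes with 0 UMIs in the *Enpp6* gate, namely *Eln*, AABR07070310.1, *Boc*, *Fbn2* and *Gsap*, which stood at 0.492 to 1.10 in the *Pdgfra* gate. Their order rests on these zeros and is not a measured one. Out of the *Enpp6* gate, *Kif19* (0.0087 ± 0.0097 in the *Mog* gate), AABR07028615.1 (0.0891 against 20.8 ± 5.54), *Rin3* (0.0330 against 7.45 ± 4.59), *Tmem108* and *Tspan11* fell the most, and *Anks6*, *Fam135b*, *Npr1*, *Eda2r* and *Pbld1* rose the most. *Kif19* was hence near 0 on both sides of the *Enpp6* gate.

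From the *Pdgfra* to the *Mog* gate, the largest rises were of AABR07005596.1, *Trpv3* (1.84 ± 1.21 against 0.0126 ± 0.0142), *Eya4* (1.66 ± 0.281 against 0.0148 ± 0.0207), *Nipal4* and AABR07053870.1. The largest falls were of AABR07070310.1, *Susd5*, LOC108349009, *Chst11*, of a chondroitin sulfotransferase (0.0856 ± 0.0386 against 12.9 ± 5.69), and *Etv4*, a transcription factor gene downstream of growth factor receptors (0.0232 ± 0.0231 against 1.96 ± 0.775). The *Gpr17* gate against the *Pdgfra* gate gave *Arhgef37* (1.05 ± 0.297 against 0.0081 ± 0.0097), *Tns1*, *Trpv3*, LOC108349752 and AABR07058656.1 as the largest rises. Its largest falls, *Nkain3*, *Kirrel1*, *Dab2ip*, *Nrg1* and *Msi1*, all had 0 UMIs in the *Gpr17* gate and stood at 0.373 to 0.872 in the *Pdgfra* gate. The *Gpr17* sums held only 47681 to 70076 UMIs per library, so few UMIs of such genes could be counted there. The order of genes at 0 is therefore not a measured one. From the *Gpr17* to the *Mog* gate, *Pbld1*, *Gdpd5*, *Itga8*, AC116220.1 and *Nudt12* rose, from 0 UMIs to 0.391 to 0.722, with the same limit. LOC108349752, LOC108349009, *Gask1b*, *Sox6* (33.9 ± 13.6 to 0.374 ± 0.197) and *Chst9* fell. *Tns1* and *Trpv3* were among the largest rises both beside *Gpr17* and in 1 of the other gates. For *Trpv3* that other gate was the *Mog* gate. The *Gpr17* gate held 6 nuclei of oligodendrocyte-like clusters, all with *Mog*, while its *Pdgfra* gate excluded *Mog*. The rise of *Trpv3* beside *Gpr17* is therefore not independent of the gates.

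By pattern over 16 sums of lineage clusters by library, the genes most like *Pdgfra* were AABR07033720.1, *Ebf4* and *Qprt* (Pearson r of 0.99 for each, on log2 levels). Among those most like *Myrf* were *Cyth1* (0.98) and *Hcn2* (0.97). Those most like *Gpr17* were *Nek6*, *Col27a1* and *Dennd3* (0.92 to 0.93), with only 45 *Gpr17* UMIs behind the order. The points are few, share libraries, and separate chiefly by precursor-like or oligodendrocyte-like cluster, so these values are descriptions.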

How the data were processed

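Single-nucleus libraries (10x Genomics 3′ v3.1) of 5 rats were analysed, labelled as separate samples. The authors deposited unfiltered matrices of UMI counts per gene and barcode. The submitters' processing notes name Cell Ranger 8.0.1, and the genome build is not given in the sources used here. The 10 genes, gates, lists and tests were chosen with earlier results of these data known, and the *Enpp6* gate after seeing these.

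Counts were used as deposited. Nuclei passing the rule were normalized, and 2000 variable genes without the 10 genes and *Mog*, 10 principal components, 20 neighbours and Leiden clustering at resolution 1.0 (scanpy 1.11.5, leidenalg 0.10.2, Python 3.11.15) gave clusters, named from fixed markers. Scrublet's own threshold marked 3 barcodes, so no doublets were removed, and removing the 5% of nuclei with the highest scores in each library was an added alternative. Sums of at least 5 nuclei were tested with edgeR 4.0.16 (TMM, filterByExpr, quasi-likelihood, R 4.3.3), and again with DESeq2 1.42.0. All sums of a library came from the same rat, which gives the pairing. Their deviations from the gate means correlated at 0.320 to 0.600 between *Pdgfra* and *Mog* gates of 2 UMIs. Pairs that included the *Gpr17* gate correlated at only 0.0669 to 0.175, and pairs that included the *Enpp6* gate at 0.0607 to 0.333. Permutation tests went through all sign flips with numpy 2.4.6, and intervals came from scipy 1.17.1. Intervals are Clopper-Pearson and cover counting error only. The edgeR step was tested on simulated data.

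Named genes were the 10 genes and *Mog*, up to 5 genes in each direction per comparison with the largest log2 fold change among those called and changed alike in every library, and up to 4 most abundant genes per list. *Sox5*, *Notch1* and *Mal* were named after their values were seen. Of the lists, *Sox4*, *Lhfpl3* and *Trf* were not measured here. Some genes that the rule names are not reported here.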

Additional observations from a re-analysis of the deposited data

Results flagged for a closer look

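The 10 genes and *Mog* were checked for a library far from the others in 40 sets of values, each a gene over the libraries of the *Pdgfra*, *Gpr17*, *Enpp6* or *Mog* gate, with the *Mog* gate taken without nuclei of the *Enpp6* gate. Dixon's test at the 95% level picked out 5 of the 40, where chance gives about 1 in 20, and 4 of the 5 lay in library 3. *Sox10* per 10000 UMIs was low there in the *Pdgfra* gate (0.306, against 2.50 to 2.99 in the other libraries) and in the *Mog* gate (0.408, against 1.98 to 2.40). *Enpp6* was high there in the *Pdgfra* gate (0.460, against 0.0518 to 0.114), as was *Pdgfra* in the *Mog* gate (0.188, against 0.0380 to 0.0804). The *Pdgfra* gate of library 3 held 64 nuclei with a median of 845 UMIs, against 3314.5 to 6804 elsewhere, and the part of this depth in these values was not tested. The fifth was *Gpr17* in the *Mog* gate of library 5 (0.00767, against 0 to 0.00214). All 5 rest on few UMIs, namely 2 (*Sox10*) and 3 (*Enpp6*) in the *Pdgfra* gate and 13 (*Sox10*), 6 (*Pdgfra*) and 4 (*Gpr17*) in the *Mog* gate.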

How the results depend on the processing

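The counts of genes called stayed within 1.5 times the reported ones in most alternatives, namely DESeq2, its size factors, no filter on low counts, no replicate block, deeper nuclei, other gates and libraries left out. The exceptions were, for *Gpr17* against *Pdgfra* gates (1109), 628 with no replicate block, 692 over every passing nucleus and 291 without *Gpr17* nuclei of at least 2 *Mog* UMIs. For *Mog* against *Gpr17* gates (2004) the exception was 1168 over every passing nucleus, and for *Mog* against *Enpp6* gates (2481) 1621 with no replicate block, which also left 3 of the stage genes called. Without the block the other comparisons called 2858 (*Mog* against *Pdgfra*), 1442 (*Mog* against *Gpr17*) and 1953 (*Enpp6* against *Pdgfra*), and it changed no calls of stage genes but those named in the report. Without a filter, *Mog* against *Pdgfra* gates called 6290. In DESeq2 the share higher was 55.1% against 37.9% (*Gpr17* against *Pdgfra*) and 33.2% against 54.9% (*Mog* against *Gpr17*), and its median over all genes moved by up to -1.10. Leaving out 1 library gave 3541 to 5105 calls (*Mog* against *Pdgfra*, with 6 to 7 stage genes), 759 to 1085 (*Gpr17* against *Pdgfra*, 3 to 4), 1475 to 1896 (*Mog* against *Gpr17*, 4 to 5), 2119 to 2762 (*Enpp6* against *Pdgfra*, 4 to 5) and 1916 to 2622 (*Mog* against *Enpp6*, 4 to 5). It gave shares of *Gpr17* nuclei of 45.7 to 54.8% with *Pdgfra* and 40.0 to 53.8% with *Mog*, and 14 to 16 of the 19 co-detection differences held 1 sign in every library (14 with all). Thinning gave 27.9% and 25.6%, and gates at 2 UMIs 100% of 2 nuclei with *Mog*. Gates at 2 and 3 UMIs could not be fitted for *Gpr17*. No call of a stage gene reversed. Changes that were not called crossed 0 as follows. *Sox10* in *Gpr17* against *Pdgfra* gates took 0.0447 (DESeq2), 0.0436 (its size factors), 0.139 (no block), 0.265 (every passing nucleus), 0.0470 (at least 1000 UMIs) and -0.298 to 0.306 with 1 library left out. *Olig2* there took -0.0770 (at least 2000 UMIs), -0.310 (without *Mog* nuclei) and -0.184 to 0.188, and *Vcan* 0.157 (every passing nucleus). In *Mog* against *Gpr17* gates, *Sox10* took 0.0538 (no filter), 0.460 (without *Mog* nuclei) and -0.339 to 0.131, and *Olig1* -0.229 (every passing nucleus), -0.0266 (at least 2000 UMIs) and -0.0568 to 0.642. *Vcan* in *Enpp6* against *Pdgfra* gates took 0.285 (without *Mog* nuclei) and -0.443 to 0.0059. In *Mog* against *Enpp6* gates, *Myrf* took -0.130 (DESeq2), -0.0164 (its size factors), -0.175 (no block), -0.182 (*Enpp6* at 10 UMIs), -0.318 (at least 5000 UMIs) and -0.133 to 0.0717, and *Cspg4* 0.866 (10 UMIs) and 0.651 (without *Mog* nuclei). Among co-detection differences, with no thinning *Gpr17* with *Pdgfra* took 1.88 and *Bcas1* with *Mog* 5.46 percentage points. Over every passing nucleus they took 0.0188 and 37.4, and *Sox10*, *Olig1* and *Olig2* with *Mog* took 8.76, 2.49 and 1.51. The causes were not tested. *Gpr17* stood at 1 UMI in nearly every nucleus that had it, so its absence from a nucleus cannot be read.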
